A study of Mus musculus with 12 samples.

Results

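The genes described are the 5 VEGF ligands (Vegfa, Vegfb, Vegfc, Vegfd and Pgf), the 3 VEGF receptor kinases (Kdr, Flt1 and Flt4) and the 2 neuropilin co-receptors (Nrp1 and Nrp2). These 10 genes were chosen by name, as the mammalian members of the family, from the 38924 genes counted in each tumor. RNA-seq had been performed on 12 pancreatic neuroendocrine tumors (PanNETs) from C57Bl6 mice of the RIP1Tag2 model, in which an insulin promoter drives a viral oncogene in pancreatic beta cells. The groups were 4 control tumors from saline-treated mice, 4 tumors from mice given sunitinib, an inhibitor of VEGF and PDGF receptor kinases, and 4 tumors from mice given rapamycin, an mTOR inhibitor, together with sunitinib (R+S). Every mouse carried the oncogene, and treatment ran for 4 days from 15.5 weeks of age in all groups. No tumor analysed here received rapamycin alone, so the comparison of R+S with sunitinib is the only one that bears on rapamycin. The comparisons ask what happens to the transcripts of the VEGF system in tumors whose VEGF receptors are pharmacologically inhibited, and whether adding mTOR inhibition alters them.

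VEGF ligands are secreted dimers that bind receptor tyrosine kinases on endothelial cells. Vegfa, released by hypoxic and by tumor cells, binds both Kdr (VEGFR2), the main signaling receptor of blood vessels, and Flt1 (VEGFR1), which binds it more tightly, signals weakly and is also made in a soluble, trapping form. Vegfb and Pgf bind Flt1 and not Kdr, whereas Vegfc and Vegfd bind Flt4 (VEGFR3), the receptor known for lymphatic growth and for sprouting vessels. Nrp1 and Nrp2 bind VEGFs and class 3 semaphorins and present the former to the kinases, and are made by endothelial as well as other cells. In the RIP1Tag2 model, islet tumors switch on angiogenesis as they progress and depend on VEGF signaling to do so.

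The upstream sequences of Kdr, Flt1 and Vegfa are given because Kdr and Flt1 were the members called in all 3 comparisons, and Vegfa is their common ligand. They are RefSeq sequences of GRCm38.p6, read 5′ to 3′ on the strand of the gene, and end before the first annotated exon. Capitals mark matches on either strand to GGAAG (the core bound by ETS factors, which are active in endothelium), to ACGTG and likewise GCGTG (cores of hypoxia response elements), to GGGCGG (known as the Sp1 box) and to AGATAA (bound by the zinc finger factors of the Gata family). No base lay in matches to more than 1 of these motifs.
Kdr, chr5:75978459-75978705, minus strand: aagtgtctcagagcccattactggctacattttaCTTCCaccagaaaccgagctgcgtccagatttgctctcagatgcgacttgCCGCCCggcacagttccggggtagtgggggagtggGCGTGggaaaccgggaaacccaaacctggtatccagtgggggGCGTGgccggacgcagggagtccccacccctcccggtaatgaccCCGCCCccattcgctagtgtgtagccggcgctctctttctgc
Flt1, chr5:147726012-147726261, minus strand: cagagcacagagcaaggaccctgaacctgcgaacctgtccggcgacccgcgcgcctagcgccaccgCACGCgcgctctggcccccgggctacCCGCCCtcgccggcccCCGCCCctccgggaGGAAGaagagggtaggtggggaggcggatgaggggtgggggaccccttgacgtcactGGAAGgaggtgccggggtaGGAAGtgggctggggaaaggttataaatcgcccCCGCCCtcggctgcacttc
Vegfa, chr17:46032378-46032627, minus strand: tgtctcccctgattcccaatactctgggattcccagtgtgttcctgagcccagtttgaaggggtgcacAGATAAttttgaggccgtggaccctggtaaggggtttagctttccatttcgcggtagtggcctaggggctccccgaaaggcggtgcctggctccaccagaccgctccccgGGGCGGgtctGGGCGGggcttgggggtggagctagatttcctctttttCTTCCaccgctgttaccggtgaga
Flt1 held 3 matches to GGAAG, Kdr 1 and Vegfa 1, beside 64.1% of 32851 RefSeq promoters with at least 1 match in their 250 upstream bases. GCGTG was found 2 times in Kdr, 1 time in Flt1 and not in the printed window of Vegfa (28.2% of promoters), and ACGTG in none of the 3 printed windows (16.6%). GGGCGG occurred 2 times in Kdr, 3 times in Flt1 and 2 times in Vegfa (32.7% of promoters), and AGATAA 1 time, in Vegfa (10.0%). These matches describe the letters of the windows and were not tested for binding. The window of Flt4 lies wholly within an annotated exon and is not printed. Another RefSeq window of Vegfa, chr17:46025164-46025413, has 218 of its 250 bases in annotated exons and is not printed either. It held 1 match to ACGTG and 1 to GCGTG.

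The Vegfa gene spans chr17:46016993-46032369, Kdr chr5:75932827-75978458, Flt1 chr5:147561604-147726011 and Flt4 chr11:49609263-49652739 (GRCm38). A count is the sum over all exons of a gene, so the heparin-binding and short splice forms of Vegfa, and the soluble and membrane forms of Flt1, cannot be told apart. At most 0.535% of the 50-base words in a member's transcripts, in Nrp2, occur in transcripts of another gene.

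Gene counts summed to 31872342 to 44215054 per tumor, with a median of 38526164, and 16645 genes passed the filter on low counts, including all 10 members. Pairs of tumors of a group correlated over these genes with r from 0.967 to 0.991 in controls, 0.872 to 0.978 in sunitinib-treated and 0.967 to 0.983 in R+S-treated tumors. Sunitinib tumor 6 stood apart, with a summed level of 12 beta-cell markers of 7839 normalized CPM (counts relative to library size), against 38308 to 83489 in the other 3 sunitinib-treated tumors. The 4 control tumors share 1 label prefix that no treated tumor has, and sunitinib-treated and R+S-treated tumors share none, so treatment and whatever the prefix marks cannot be told apart. Labels do not say whether tumors of a group came from separate mice, and p-values measure the spread between these tumors.

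Levels between genes are compared as normalized CPM per kilobase of exon. Vegfa was the most abundant ligand in each of the 12 tumors. In controls its level was 122 ± 4.25 CPM per kilobase (mean ± SD, n = 4), followed by Vegfb at 38.7 ± 5.36, Vegfd at 2.05 ± 0.756, Vegfc at 1.53 ± 0.134 and Pgf at 1.38 ± 0.722. The control ranges of Vegfd, Vegfc and Pgf overlapped, so these 3 have no order. Vegfa made up 70.6% to 77.7% of the summed ligand level per kilobase in controls, 57.5% to 78.4% in sunitinib-treated and 80.6% to 84.0% in R+S-treated tumors.

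None of the 5 ligands passed the test in any of the 3 comparisons (edgeR quasi-likelihood test on all 12 tumors, adjusted p over all genes tested), while some passed under the alternatives given with them. Vegfa was nearly constant among controls, at 509, 511, 516 and 548 normalized CPM in tumors 1, 2, 3 and 4. In sunitinib-treated tumors it was 811, 304, 484 and 424 for tumors 5, 6, 8 and 12, a range that contains every control. The log2 fold change was -0.04 (SE 0.24, 95% interval -0.57 to 0.48; edgeR adjusted p = 0.936). In R+S-treated tumors Vegfa measured 676, 886, 778 and 709.9 CPM in tumors 4, 5, 7 and 10, all above the highest control. That difference was 0.55 on the log2 scale (SE 0.24) and did not pass, with an edgeR adjusted p of 0.231 and an exact permutation p of 0.0286, the smallest that 4 tumors against 4 allow. Groups did not overlap in this upward direction for 11.6% of all genes tested. With only the 8 tumors of this comparison in the fit, which leaves out the wide spread of the sunitinib group, Vegfa had an edgeR adjusted p of 0.0123 at a log2 fold change of 0.54. Against sunitinib alone the R+S difference was 0.59 (SE 0.24; edgeR adjusted p = 0.128), and the ranges overlapped through sunitinib tumor 5. Without that tumor, the highest of its group, the difference was 0.90 (edgeR adjusted p = 0.012), and with treated tumors of the same label prefix summed it was 0.61 (edgeR adjusted p = 0.0473), so that Vegfa passed in both. The summing joined sunitinib tumors 5, 6 and 8, and R+S tumors 5 and 7, which left fewer units in each treated group. In the other 11 fits that each left out 1 tumor Vegfa did not pass, with differences down to 0.41 and edgeR adjusted p up to 0.265.

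Vegfb, which binds Flt1 and is best known in heart and muscle, measured 64.2, 73.0, 58.8 and 52.7 CPM in control tumors 1 to 4. It was 75.7, 36.5, 79.9 and 106 CPM in sunitinib tumors 5, 6, 8 and 12, and 49.9, 47.9, 57.4 and 57.9 CPM in R+S tumors 4, 5, 7 and 10. Sunitinib tumor 6 was the lowest and tumor 12 the highest of the 12, and the groups overlapped in every comparison. Without tumor 6, Vegfb was lower in R+S than in sunitinib-treated tumors by a log2 fold change of -0.71 (edgeR adjusted p = 0.0257), against -0.49 (adjusted p = 0.208) with it.

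The lymphangiogenic ligands were at low levels throughout. Vegfc lay between 3.44 and 4.20 CPM in controls, and measured 2.68, 16.3, 4.25 and 5.87 CPM in sunitinib tumors 5, 6, 8 and 12. The high value was that of tumor 6, and the log2 fold change of 0.95 (SE 0.48) had an edgeR adjusted p of 0.303. In R+S-treated tumors Vegfc ranged from 2.15 to 5.25 CPM. Vegfd ranged from 2.90 to 7.13 CPM in controls and from 5.43 to 7.02 in sunitinib-treated tumors, and measured 5.35, 3.96, 2.34 and 1.93 in R+S tumors 4, 5, 7 and 10. All 4 R+S values lay below the lowest sunitinib value, as was the case for 9.73% of all genes tested in that comparison and direction. The log2 fold change of -0.92 (SE 0.35) did not pass, with an edgeR adjusted p of 0.11, whereas DESeq2 gave an adjusted p of 0.048.

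Pgf, the placental growth factor, measured 7.12, 3.36, 2.84 and 2.71 CPM in control tumors 1 to 4. It was 2.93, 3.54, 3.59 and 4.20 CPM in sunitinib tumors 5, 6, 8 and 12, and 8.29, 17.9, 6.36 and 3.22 in R+S tumors 4, 5, 7 and 10. R+S tumor 5 had the highest value of the 12, while R+S tumor 10 lay within the range of the other groups. The log2 fold change was 1.16 (SE 0.48) against control and 1.33 (SE 0.48) against sunitinib, with edgeR adjusted p of 0.199 and 0.0947. DESeq2 gave an adjusted p of 0.0348 for the latter.

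**Figure D1:**
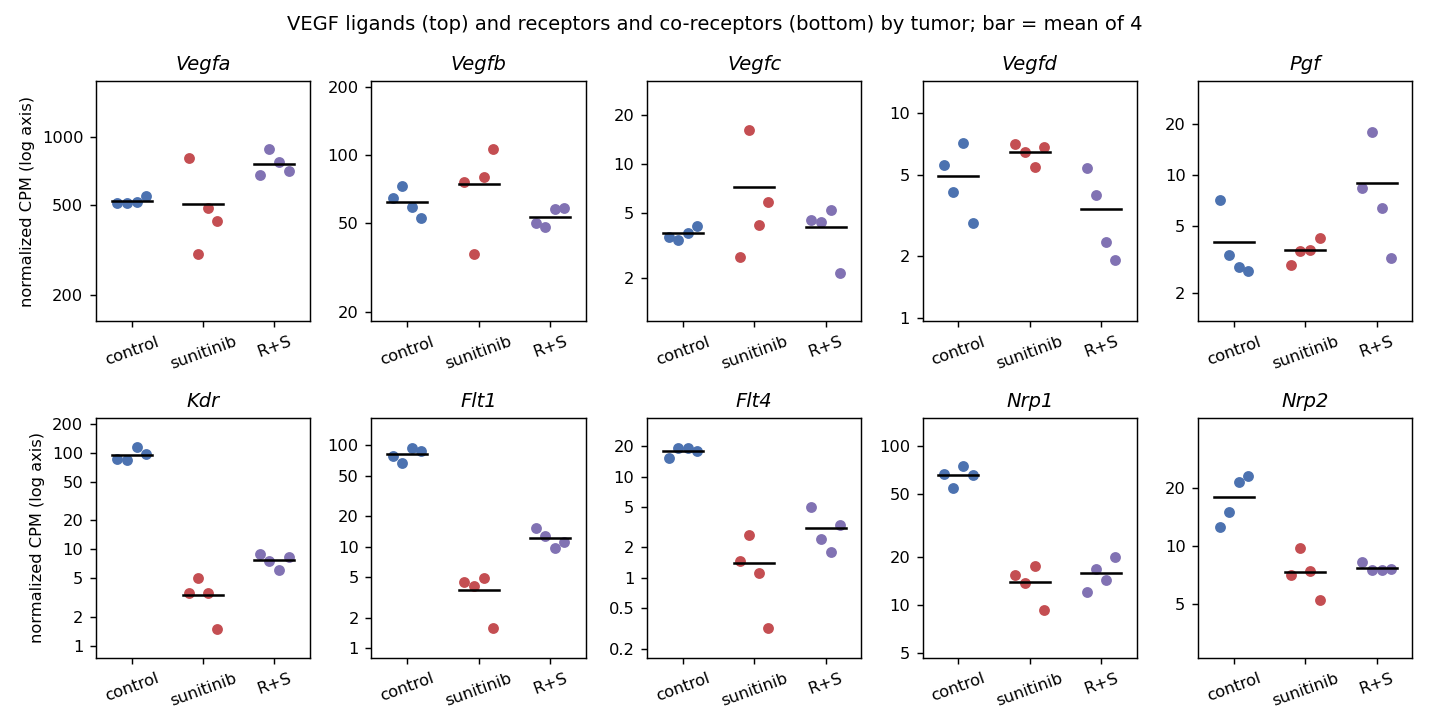
Normalized CPM on log axes, 1 panel per gene, with ligands in the upper row and receptors and co-receptors in the lower row. Each point is 1 tumor and each bar the mean of 4. All 5 lower panels show the controls above both treated groups, whereas Kdr and Flt1 are the only ones of the 5 in which the R+S tumors also lie wholly above the sunitinib tumors.

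All 3 receptors and both co-receptors fell in sunitinib-treated and in R+S-treated tumors, and for each of the 5 the highest treated tumor lay below the lowest control. Kdr was the member with the largest fall. It measured 86.4, 85.0, 117 and 98.5 CPM in control tumors 1 to 4, against 3.52, 5.03, 3.54 and 1.48 in sunitinib tumors 5, 6, 8 and 12 and 8.96, 7.50, 6.09 and 8.27 in R+S tumors 4, 5, 7 and 10. The level was 28.4-fold lower under sunitinib (95% interval 17.4 to 46.4; edgeR adjusted p = 1.1e-05) and 12.6-fold lower under R+S (7.92 to 19.9; adjusted p = 0.000126). Ranked by log2 fold change, Kdr stood at place 15 from the lowest of 16645 genes in the sunitinib comparison and at place 31 in the R+S comparison.

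Flt1, the high-affinity receptor of Vegfa, Vegfb and Pgf, measured 78.9, 67.7, 93.5 and 87.7 CPM in control tumors 1 to 4. The values were 4.52, 4.12, 4.99 and 1.60 in sunitinib tumors 5, 6, 8 and 12, and 15.3, 12.8, 9.65 and 11.1 in R+S tumors 4, 5, 7 and 10. Flt1 was thus 21.5-fold lower under sunitinib (95% interval 13.2 to 34.8; edgeR adjusted p = 1.47e-05) and 6.70-fold lower under R+S (4.30 to 10.5; edgeR adjusted p = 0.00037). Tumor 12, the only one of its label prefix in the sunitinib group, was the lowest of the 4 for every receptor and co-receptor.

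Flt4, the receptor of Vegfc and Vegfd, fell from 15.4, 19.2, 19.2 and 18.0 CPM in control tumors 1 to 4 to 1.48, 2.65, 1.11 and 0.321 in sunitinib tumors 5, 6, 8 and 12. The last of these values rests on 10 reads and the other 3 on 42 to 96. R+S tumors 4, 5, 7 and 10 had 5.05, 2.45, 1.79 and 3.32 CPM. The fall was 12.8-fold under sunitinib (95% interval 5.74 to 28.7; edgeR adjusted p = 0.00157) and 5.69-fold under R+S (2.66 to 12.2; edgeR adjusted p = 0.0176). The 5 lymphatic markers (Prox1, Lyve1, Pdpn, Ccl21a and Reln) gave no call in any comparison, and their summed level was 168 to 203 CPM in controls, 102 to 251 in sunitinib-treated and 174 to 224 in R+S-treated tumors. Prox1 was the largest part of that sum, with means of 118, 91.8 and 145 CPM. Which cells made the Prox1 RNA was not tested, so the sum cannot be read as lymphatic RNA alone. Ccl21a, at 0.431 to 18.4 CPM in controls, had log2 fold changes of -2.50 and -1.80 (edgeR adjusted p = 0.215 and 0.347). Whether lymphatic vessels changed was not tested.

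Nrp1, the co-receptor of Kdr for Vegfa, measured 66.3, 54.4, 75.3 and 65.7 CPM in control tumors 1 to 4. It was 15.4, 13.7, 17.7 and 9.30 in sunitinib tumors 5, 6, 8 and 12 and 12.1, 16.9, 14.4 and 20.1 in R+S tumors 4, 5, 7 and 10, so the treated groups overlapped each other and neither reached the controls. Nrp1 was 4.66-fold lower under sunitinib (95% interval 3.37 to 6.45; edgeR adjusted p = 8.87e-05) and 4.12-fold lower under R+S (2.98 to 5.69; adjusted p = 0.000288). Nrp2, the neuropilin linked to Flt4 and lymphatic vessels, was 12.5, 14.9, 21.4 and 23.0 CPM in controls, 7.02, 9.73, 7.36 and 5.23 under sunitinib and 8.21, 7.50, 7.45 and 7.55 under R+S, in the same order of tumors. These were the smallest falls of the 5, at 2.44-fold (1.71 to 3.50; edgeR adjusted p = 0.00807) and 2.34-fold (1.63 to 3.34; edgeR adjusted p = 0.0147).

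In all, 5 of 10 members were lower in each comparison with control and 0 higher. Of all genes tested, 2.55% were called lower under sunitinib and 2.61% under R+S. No overlap in the downward direction was found for 5.76% and 11.9% of all genes. These comparisons share their 4 control tumors. The median log2 fold change over all genes was 0.03 for sunitinib and 0.01 for R+S, and -0.02 for R+S versus sunitinib. Leaving out control tumor 3, R+S tumor 5 or R+S tumor 7 left 3 members called under R+S in each case, since Flt4 (edgeR adjusted p = 0.0556, 0.0712 and 0.0623) and Nrp2 (0.0607, 0.0566 and 0.0529) no longer passed, and without control tumor 4 Nrp2 alone was lost (0.051). With only the 8 tumors of the sunitinib comparison in the fit, Nrp2 had an edgeR adjusted p of 0.0569.

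**Figure D2:**
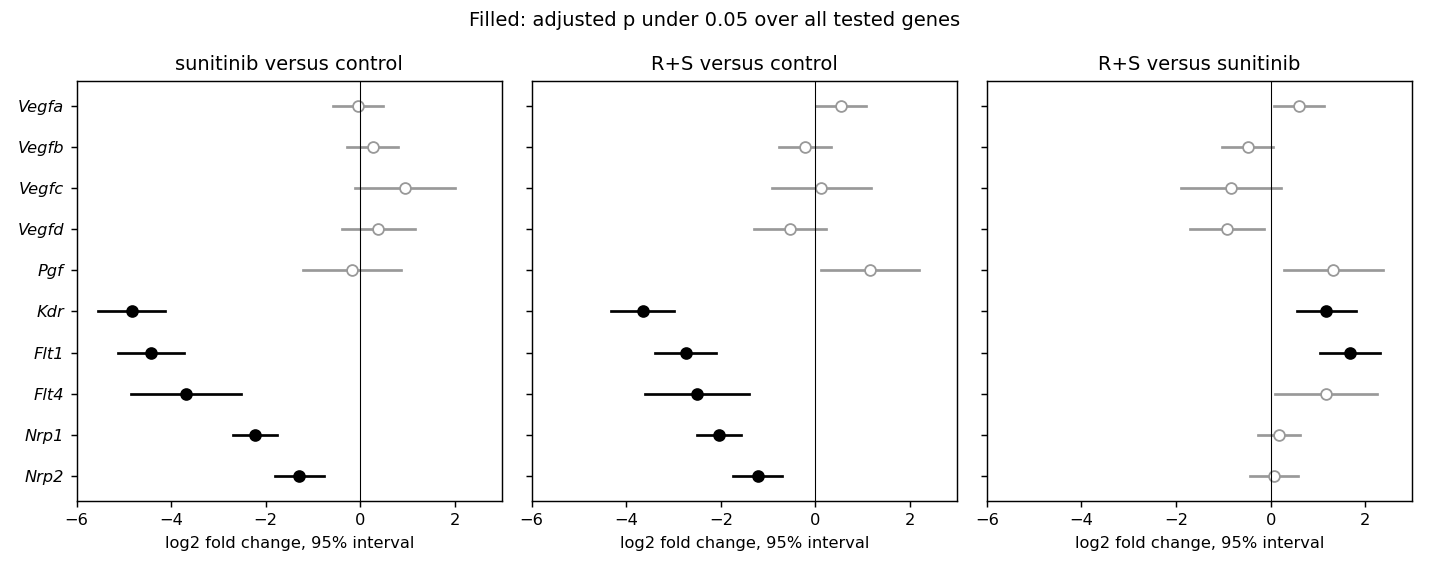
Log2 fold change of each member (x axis) in the 3 comparisons, with the 95% interval of the edgeR fit as a line. Filled points passed the adjusted p threshold of 0.05 over all genes tested, which the 5 receptors and co-receptors did against control and Kdr and Flt1 did in R+S versus sunitinib, whereas every ligand is drawn open.

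Between the treated groups, Flt1 and Kdr were higher in R+S-treated than in sunitinib-treated tumors, with no overlap. Flt1 was 3.20-fold higher (95% interval 2.07 to 4.95; edgeR adjusted p = 0.0241) and Kdr 2.27-fold higher (1.47 to 3.49; edgeR adjusted p = 0.0358), both still far below control. Flt4 had a fold change of similar size, 2.26-fold (1.07 to 4.76), with a wider interval, overlapping groups and an edgeR adjusted p of 0.135. Nrp1 and Nrp2 differed by 0.18 and 0.07 on the log2 scale, with 95% intervals of -0.27 to 0.63 and -0.45 to 0.58. So 2 of 10 members were called higher and 0 lower, where 2.63% of all genes tested were called higher and 4.58% lower, and 8.90% of all genes lay wholly higher. These calls were not stable to the choice of tumors. With only the 8 tumors in the fit, the edgeR adjusted p was 0.0994 for Flt1 and 0.126 for Kdr. Without R+S tumor 4, 5 or 7 it was 0.0704, 0.0935 and 0.0623 for Flt1, and without R+S tumor 4, 5, 7 or 10 it was 0.0894, 0.102, 0.0712 and 0.0734 for Kdr. Kdr was also lost without control tumor 2, 3 or 4 (0.0521, 0.0548 and 0.0522) or sunitinib tumor 8 (0.0563), while Flt4 passed without sunitinib tumor 6 (0.0422). The size of the Flt1 difference moved less, between 1.43 and 1.84 on the log2 scale over the 12 fits that each left out 1 tumor. Over all genes, the fit with only the 8 tumors compared called 0 higher and 3 lower of 16167 tested. Calls between the treated groups in the paragraphs that follow come from the fit of all 12 tumors.

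The order of receptor levels per kilobase of exon differed between the groups. Lengths are unions over all annotated transcripts (9030 bases for Kdr, 13504 for Flt1), so the order within a group depends on that choice. In controls Kdr led with 10.7 ± 1.65 CPM per kilobase (SD, n = 4), above Nrp1 (6.68 ± 0.876) and Flt1 (6.07 ± 0.833), whose ranges overlapped, and above Flt4 (2.18 ± 0.215) and Nrp2 (1.51 ± 0.428), which overlapped as well. Under sunitinib Nrp1 led with 1.43 ± 0.362, then came Nrp2 (0.619 ± 0.156), Kdr (0.375 ± 0.162), Flt1 (0.282 ± 0.112) and Flt4 (0.169 ± 0.118), and each of the last 4 overlapped its neighbor. Under R+S the order was Nrp1 (1.62 ± 0.349), Flt1 (0.905 ± 0.180), Kdr (0.853 ± 0.136), Nrp2 (0.648 ± 0.0302) and Flt4 (0.383 ± 0.171), in which the range of Kdr overlapped those of Flt1 and of Nrp2, while every Flt1 value lay above every Nrp2 value. The level of Vegfa per unit of Kdr, both per kilobase, was 9.28 to 12.7 in controls, 127 to 605 in sunitinib-treated and 159 to 269 in R+S-treated tumors. The level of Flt1 per unit of Kdr was 0.532 to 0.610 in controls, 0.547 to 0.943 in sunitinib-treated and 0.901 to 1.14 in R+S-treated tumors. This last ratio was chosen after the values had been seen. Its log2 difference was 0.90 for R+S versus control and 0.41 for sunitinib versus control, each with an adjusted p of 0.0857 in the exact permutation test over 3 comparisons.

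Kdr, Flt1 and Flt4 are made mainly by endothelial cells, while Nrp1 and Nrp2 are also made by other cells, whose share was not tested. The levels of these receptors and co-receptors were set beside those of 14 other endothelial transcripts. Of these, 12 fell under sunitinib and 12 under R+S (2.55% and 2.61% of all genes tested), with median log2 fold changes of -2.70 and -1.79. In R+S-treated tumors 8 were higher than in sunitinib-treated tumors (2.63% of all genes, list median 0.84). A fit of only the 8 tumors compared called 0 of 16167 genes higher. The list ran from Emcn, a sialoglycoprotein of capillaries and veins, at -3.94 under sunitinib and -3.32 under R+S (edgeR adjusted p = 1.93e-05 and 0.000129) to Vwf, von Willebrand factor, at -0.12 and 0.66 (0.764 and 0.0859). Plvap, which forms the diaphragms of fenestrated capillaries, fell by 3.53 and 2.64 on the log2 scale (edgeR adjusted p = 4.67e-06 and 6.16e-05). Robo4 and Erg, an endothelial guidance receptor and transcription factor, led the markers that were higher under R+S than under sunitinib, by 1.31 and 1.16 (edgeR adjusted p = 0.0143 and 0.0338). The summed level of the 14 markers was 533 to 702 CPM in controls, 85.6 to 124 under sunitinib and 151 to 196 under R+S. In bulk tumor RNA, fewer endothelial cells and less RNA of a gene per endothelial cell cannot be told apart.

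Kdr, Flt1 and Flt4 fell by more than the mean of these markers, though single markers such as Emcn fell by more than Flt4. Under R+S Emcn also fell by more than Flt1, and Plvap by more than Flt4. The log2 CPM of each receptor minus the mean log2 CPM of the 14 markers was compared over the 8 tumors of each comparison by a two-sided exact permutation test, with p adjusted over 15 tests. For Kdr this difference was 1.82 ± 0.106 in controls (SD, n = 4), -0.64 ± 0.582 under sunitinib and -0.07 ± 0.195 under R+S. Relative to the markers, Kdr was thus lower by 2.46 under sunitinib and by 1.89 under R+S, Flt1 by 2.05 and 0.99, and Flt4 by 1.49 and 0.83. For Nrp1 the relative level differed by 0.22 under sunitinib (unadjusted exact permutation p = 0.229) and -0.30 under R+S (0.343), and neither passed. Nrp2 fell by less than the markers, and stood 1.19 higher relative to them under sunitinib and 0.58 higher under R+S (unadjusted exact permutation p = 0.0571). In R+S versus sunitinib the relative level of Flt1 was higher by 1.06 and that of Nrp2 lower by 0.61, while Kdr at 0.57 had an unadjusted exact permutation p of 0.114. Of the 15 tests, 9 reached the smallest p of 0.0286, which adjusts to 0.0476 only because 9 did: all of the Kdr, Flt1 and Flt4 tests against control, Nrp2 under sunitinib, and Flt1 and Nrp2 between the treated groups. With any 1 control or R+S tumor left out, 7 or 8 of the 15 tests had an unadjusted p under 0.05 and 0 passed after adjustment (smallest adjusted p 0.0536 to 0.0612). With Pecam1 and Cdh5 alone as reference, Flt4 was lower by 1.22 and 0.86 and no longer passed in the exact permutation test (adjusted p = 0.117 and 0.0857).

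**Figure D3:**
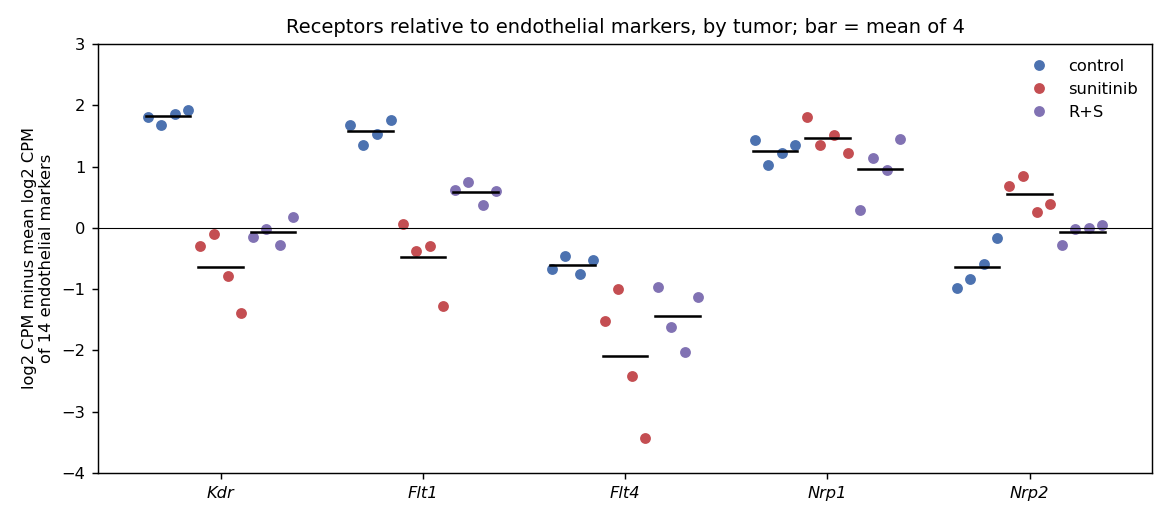
Log2 CPM of each receptor and co-receptor minus the mean log2 CPM of 14 endothelial markers (y axis), with 1 point per tumor, colored by group, and a bar at the mean of 4. Kdr drops from 1.82 in controls to -0.64 under sunitinib and -0.07 under R+S, Nrp1 overlaps across groups, and Nrp2 is higher under sunitinib than in controls.

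Markers of other cells also moved with treatment. Of all genes tested, 2.55% were called lower under sunitinib, 2.61% under R+S and 4.58% in R+S versus sunitinib. Of 24 acinar markers, genes of the digestive-enzyme cells that surround islets, 23 were called higher under sunitinib and 22 under R+S (1.93% and 1.55% of all genes were called higher), with median log2 fold changes of 9.69 and 8.40. Gp2 and Pla2g1b, a zymogen granule protein and a phospholipase, rose by 10.78 and 10.74 under sunitinib (edgeR adjusted p = 0.000142 and 4.6e-05), and by 8.94 and 9.25 under R+S (0.00059 and 0.000245). Cuzd1, another zymogen granule protein, was the 1 acinar marker called between the treated groups, at -1.70 in R+S versus sunitinib (edgeR adjusted p = 0.0472). The acinar markers summed to 49.5 to 155 CPM in controls, 12735 to 45466 under sunitinib and 3431 to 19171 under R+S. That sum was at most 4.55% of a tumor's counts, 7 of the 24 markers had no read in at least 1 control, and 1 had none in any control. Beta-cell markers gave 0 calls of 12 in each comparison, and unlike the endothelial list their summed ranges overlapped between groups (44180 to 69002, 7839 to 83489 and 48661 to 75560 CPM). Pericyte markers fell with the receptors for 4 of 8 genes under sunitinib and 2 under R+S, among them Rgs5 by 1.41 and 0.79 on the log2 scale (edgeR adjusted p = 0.000532 and 0.0268) and Notch3, a receptor of mural cells, by 1.35 under sunitinib (edgeR adjusted p = 0.0228). Rgs5 and Notch3 were also higher in R+S than in sunitinib-treated tumors, by 0.62 and 1.11 (edgeR adjusted p = 0.0493 and 0.0448). Of 8 markers of myeloid cells, which can express Flt1, 3 fell under sunitinib and 1 under R+S, with Mrc1, a macrophage mannose receptor, at -1.91 and -2.33 (edgeR adjusted p = 0.00502 and 0.00241) and Fcgr1, an Fc receptor, at -1.41 under sunitinib (edgeR adjusted p = 0.0105). Cd14, Itgam, Cd68 and Lyz2 had positive log2 fold changes under sunitinib (0.77, 0.38, 0.31 and 0.21), none of them called. The myeloid sum was 331 to 483 CPM in controls, 181 to 492 under sunitinib and 211 to 301 under R+S. With an acinar score as a covariate, which separates the treated tumors from the controls, the Kdr fold change was -5.78 (SE 1.12) under sunitinib and -4.45 (SE 0.97) under R+S, with edgeR adjusted p of 0.329 and 0.513, and no member was called against control. The part of acinar, pericyte or myeloid RNA in the results was not tested beyond this fit.

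**Figure D4:**
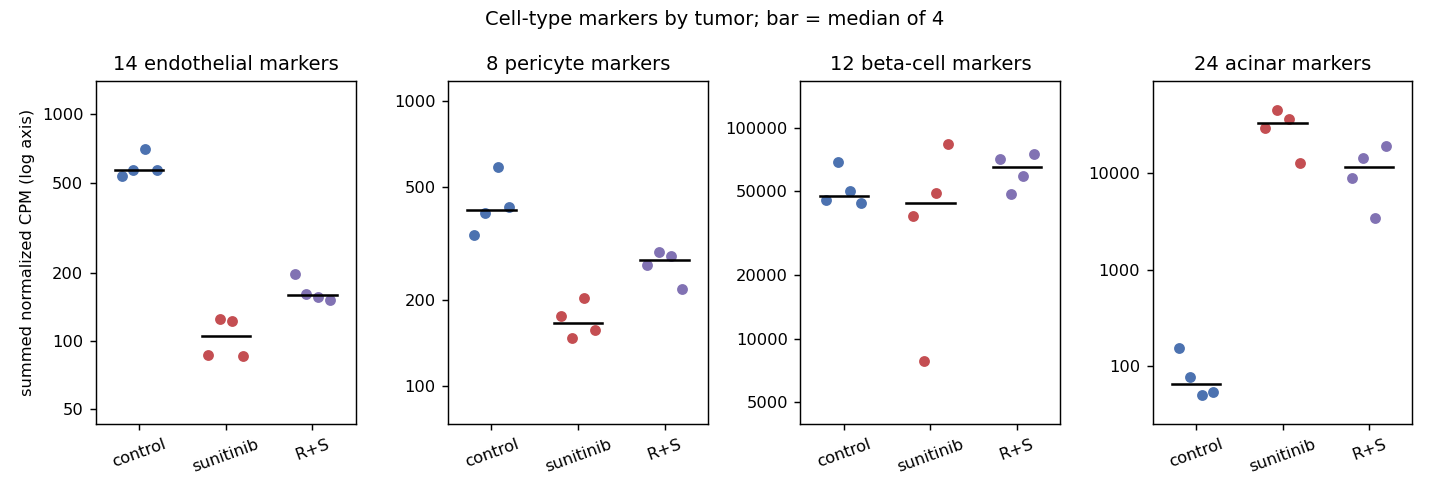
Summed normalized CPM of 4 marker lists on log axes, with 1 point per tumor and a bar at the median of 4. The endothelial and pericyte sums of the treated tumors lie below all controls, the beta-cell sums overlap with sunitinib tumor 6 lowest at 7839 CPM, and the acinar sums reach from 3431 to 45466 CPM in the treated tumors.

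Genes that act around the receptors were described by list. Of all genes tested, 2.55% were called lower under sunitinib and 2.61% under R+S, and 1.55% higher under R+S. In R+S versus sunitinib 2.63% were called higher and 4.58% lower. Ptprb, the endothelial phosphatase that restrains Kdr and Tek, fell by 2.53 under sunitinib and 1.30 under R+S and was 1.23 higher in R+S than in sunitinib-treated tumors (edgeR adjusted p = 0.000164, 0.0152 and 0.0277), in a list of 6 receptor modulators with 2, 1 and 1 calls. Dab2, an endocytic adaptor of the receptors, was the other modulator that fell under sunitinib, by 1.77 (edgeR adjusted p = 0.00223). Of 4 ligand-processing and matrix genes that passed the filter, Hspg2, the basement membrane proteoglycan perlecan, fell by 2.46 and 1.78 (edgeR adjusted p = 0.000153 and 0.00211). Furin, a protease that matures Vegfc and Vegfd, was 0.56 higher under R+S than in controls and 0.63 higher than under sunitinib (edgeR adjusted p = 0.0426 and 0.0294). Of 12 semaphorins and plexins, 3 fell in each comparison with control, led by Sema3f, a ligand of Nrp2, at -2.52 and -1.86 (edgeR adjusted p = 4.6e-05 and 0.000584) and Plxnd1, an endothelial semaphorin receptor, at -1.99 and -1.89 (edgeR adjusted p = 0.00163 and 0.00378). Sema3c, another class 3 semaphorin, was the 1 member of this list called between the treated groups, at -1.71 in R+S versus sunitinib (edgeR adjusted p = 0.0257).

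Of 31 signal transducers downstream of the receptors, 1 rose and 1 fell under sunitinib (1.93% and 2.55% of all genes), 2 fell under R+S (2.61%), and 1 was lower in R+S than in sunitinib-treated tumors (4.58%). The list medians were -0.14, -0.01 and 0.03. Nos3, the endothelial nitric oxide synthase, fell by 2.06 and 1.57 (edgeR adjusted p = 0.0012 and 0.00926), and Fyn, a Src-family kinase, by 0.77 under R+S (edgeR adjusted p = 0.0138). Sphk1, a sphingosine kinase, rose by 2.72 under sunitinib (edgeR adjusted p = 0.0372), and Hras, a small GTPase, was 0.76 lower on the log2 scale under R+S than under sunitinib, at -0.76 (edgeR adjusted p = 0.0383). Among 9 tested genes that VEGF is known to induce in endothelium, 2 fell under sunitinib and 1 under R+S (2.55% and 2.61% of all genes). The list medians were -1.17 and -0.40. Rcan1, Dusp5 and Nr4a2 had positive log2 fold changes under sunitinib (0.76, 0.24 and 0.23), none of them called. Esm1, the endothelial proteoglycan endocan, was at 46.9 to 68.4 CPM in controls, 0.580 to 1.67 under sunitinib and 1.58 to 4.88 under R+S. Its log2 fold changes of -5.74 and -4.22 (edgeR adjusted p = 1.79e-05 and 0.000201) were set beside -4.83 and -3.65 for Kdr, a difference that was not tested. Esm1 was 1.52 higher in R+S than in sunitinib-treated tumors (edgeR adjusted p = 0.0388). Dll4, the Notch ligand of tip cells, fell by 1.77 under sunitinib (edgeR adjusted p = 0.0315).

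Hypoxia-inducible factor (HIF) targets, the class of genes to which Vegfa belongs, were set beside Vegfa, and the difference from it was not tested. Of 16 such genes with Vegfa left out, 10 rose under sunitinib (1.93% of all genes tested), with a median log2 fold change of 1.80. Under R+S 4 rose (1.55% of all genes, list median 0.42). In R+S versus sunitinib 7 were lower (4.58% of all genes, list median -1.22). A fit of only the 8 tumors compared called 3 of 16167 genes lower. Ak4, an adenylate kinase of mitochondria, rose by 4.89 under sunitinib and 2.73 under R+S and was -2.16 in R+S versus sunitinib (edgeR adjusted p = 0.000882, 0.0268 and 0.0437). Slc16a3, a lactate exporter, rose by 3.82 under sunitinib (edgeR adjusted p = 0.000554), and Ankrd37 by 1.80 under R+S (edgeR adjusted p = 0.0215). Ldha, lactate dehydrogenase A, was at 12.7 to 18.5 CPM in controls, 25.5 to 340.4 under sunitinib and 13.6 to 18.1 under R+S, a difference of -2.92 between the treated groups (edgeR adjusted p = 0.0306). The Vegfa log2 fold changes of -0.04, 0.55 and 0.59 in these comparisons were all short of the threshold, and in R+S versus sunitinib Vegfa had the opposite sign to the HIF median.

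Genes whose log2 CPM followed each member most closely over the 12 tumors were taken by Pearson's r, as a description, since tumors share group and RNA source. Kdr went most closely with Sema3f (r = 0.997, and 0.931 for deviations from the group means), Sox18 (0.992 and 0.902) and Podxl (0.992 and 0.866), Flt1 by Sox18 (0.995 and 0.922), Cyyr1 (0.994 and 0.959) and Arap3 (0.994 and 0.896), and Flt4 by Adgrf5 (0.979 and 0.918), Sema3f (0.973 and 0.901) and Cyyr1 (0.972 and 0.799). Nrp1 went with Ccnd1 (0.977 and 0.711), Lama3 (0.974 and 0.712) and Gimap4 (0.974 and 0.882), and Nrp2 with Plxnd1 (0.985 and 0.921), Fmnl3 (0.969 and 0.837) and Prex2 (0.959 and 0.903). All 15 of these receptor values were higher over the 12 tumors, where the step between controls and treated tumors enters r, than for deviations from the group means. For the ligands the closest genes were Tep1 (0.962), Sec16a (0.957) and Ing5 (0.956) for Vegfa, Tsfm (0.961) and Mrfap1 (0.952) for Vegfb, Rgs2 (0.918), St3gal2 (0.915) and Eny2 (0.907) for Vegfc, Hp (0.950), Ccdc80 (0.920) and Fbln2 (0.889) for Vegfd, and Oxr1 (0.956), Smyd3 (0.938) and Cd44 (0.921) for Pgf. No 2 ligands shared a gene among those named. Between members, Kdr had r = 0.985 with Flt1, 0.971 with Flt4, 0.963 with Nrp1 and 0.931 with Nrp2, against -0.07 with Vegfa. For deviations from the group means these values were 0.885, 0.941, 0.596, 0.755 and -0.12, in the same order.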

How the data were processed

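The 12 PanNETs sequenced (4 control, 4 sunitinib, 4 R+S) were grouped by their labels. Per the labels, total RNA was made into stranded mRNA libraries. The authors deposited raw counts of reads per gene, without normalization, and the submitters' processing notes name cutadapt 1.2.1, TopHat2 2.0.9, HTSeq 0.5.4p3 and GRCm38. The 5 closing totals of each table were left out. TMM normalization was followed by the test of edgeR 4.0.16 (quasi-likelihood, robust; R 4.3.3, limma 3.58.1), with filterByExpr (minimum count 10, total 15), all 12 tumors in 1 fit and Benjamini-Hochberg adjustment over 16645 genes, at a threshold of 0.05. The standard error is the absolute log2 fold change over the square root of F, and intervals are 95%. Log2 CPM used a prior count of 2. Normalized CPM is scaled to the TMM-adjusted library size, and lengths are unions of exons in GENCODE M21. Exact permutation tests were two-sided over 70 arrangements. Totals of 31872342 to 44215054 reads leave genes under about 1 CPM imprecise. PCR copies were not marked.

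Named genes were all members, up to 2 called genes of each list and comparison with the largest absolute log2 fold change (average log2 CPM of at least 1), the lowest and highest endothelial marker, and the 3 most alike genes of each member (1 of them is not reported here), that is tested genes with a symbol that is not a predicted gene's and the same minimum. Members and lists were chosen with earlier results of these data known. Lists are described by counts and medians, without a list test. The Esm1 and Ldha levels and the Flt1 to Kdr ratio were picked after the values had been seen. Scripts were tested on simulated counts. Alternatives were DESeq2 1.42.0, normalization by upper quartile or by library size alone, the unfiltered table, at least 10 counts in every tumor, only the 8 tumors compared, same-prefix treated tumors summed, an acinar score as covariate, each tumor left out and, for receptors relative to markers, Pecam1 and Cdh5 as reference and a prior count of 0.5.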

Additional observations from a re-analysis of the deposited data

Results flagged for a closer look

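A sample far from the other 3 of its group was looked for in the log2 CPM of each member in each of 30 groups of 4 tumors, by Dixon's ratio at its 95% critical value, which chance exceeds in about 1 of 20 groups. It marked 2 values. Flt1 in sunitinib tumor 12, at 1.60 CPM against 4.12 to 4.99 CPM in the other 3, had a ratio of 0.830. Nrp2 in R+S tumor 4, at 8.21 CPM against 7.45 to 7.55 CPM in the other 3, had a ratio of 0.864. Leaving out tumor 12 kept Flt1 called lower under sunitinib, and leaving out R+S tumor 4 kept Nrp2 called lower under R+S. The cause of either value was not tested.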

How the results depend on the processing

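No paired analysis was possible because the groups share fewer than 2 replicate numbers (control tumors 1 to 4, sunitinib tumors 5, 6, 8 and 12, R+S tumors 4, 5, 7 and 10). Normalizing by upper quartile or by library size, testing the unfiltered table, or requiring 10 counts from all tumors left the member counts at 5, 5 and 2 in sunitinib versus control, R+S versus control and R+S versus sunitinib. Summing treated tumors of 1 label prefix gave 5, 5 and 3, adding Vegfa in the last (0.61, edgeR adjusted p = 0.0473). Sunitinib tumors 5, 6 and 8 were summed, as were R+S tumors 5 and 7. The 4 controls stayed separate although they share 1 prefix. Whether calls against control hold with the prefix as the unit therefore cannot be tested. The acinar covariate gave 0, 0 and 1, and over all genes 0 calls in both comparisons with control by edgeR, with 783 and 710 genes at an unadjusted p under 0.05, since the score separates treated tumors from controls (5.82 to 9.19 in treated tumors, -2.23 to 1.42 in controls). The Kdr standard error rose to 1.12 and 0.97. In R+S versus sunitinib only the 8 tumors compared gave 0 members, with 3 genes called of all tested, and DESeq2 gave 4, adding Vegfd and Pgf. With 1 tumor left out the counts were 5 in every fit, 3 to 5 and 0 to 4.

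Signs turned only for values that had not passed. The acinar covariate turned Vegfa in sunitinib versus control to 0.045, Vegfb and Pgf in R+S versus control to 0.42 and -0.81, and Nrp2 in R+S versus sunitinib to -0.017. A left-out tumor turned Vegfa in sunitinib versus control to 0.032 (without tumor 12) and 0.14 (without tumor 6; range -0.35 to 0.14), Pgf there to 0.26 (without control 1; range -0.32 to 0.26), Vegfc in R+S versus control to -0.016 (without R+S 7; range -0.016 to 0.34), and Nrp2 in R+S versus sunitinib to -0.062 (without sunitinib 12; range -0.062 to 0.23).

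Relative to the endothelial markers, leaving out 1 tumor gave ranges in sunitinib versus control of -2.64 to -2.21 for Kdr, -2.23 to -1.79 for Flt1, -1.85 to -1.04 for Flt4 and 1.08 to 1.35 for Nrp2. In R+S versus control they were -1.97 to -1.82 for Kdr, -1.07 to -0.92 for Flt1 and -0.98 to -0.64 for Flt4, and in R+S versus sunitinib 0.79 to 1.24 for Flt1, -0.71 to -0.51 for Nrp2 and 0.32 to 0.76 for Kdr. No sign turned, and calls were lost because the adjustment needs 9 tests at the smallest p. With Pecam1 and Cdh5 as reference, Flt4 was -1.22 and -0.86 against control and did not pass, while Nrp2 in R+S versus control (0.55) and Nrp1 in R+S versus sunitinib (-0.82) did. A prior count of 0.5 changed no call of the 15. Depth limits Flt4 most, with 10 reads in sunitinib tumor 12. Where no construction is named, the cause was not tested.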
